A study of Drosophila melanogaster with 2 samples.

Results

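The peaks described here are the sites of the Dip2-eGFP fusion protein that lay between annotated genes. They were taken from the authors' optimal list, which was made from the alignments of both replicates and holds 973 peaks past an irreproducible discovery rate (IDR) threshold. A peak was kept when its summit lay on 1 of the 7 arms (X, Y, 4 and both arms of chromosomes 2 and 3), more than 500 bp from every Ensembl transcript start and outside every annotated gene body, with transposable elements not counted as genes. This left 179 of 910 peaks on the arms (19.7%, 95% Wilson interval 17.2% to 22.4%). The other peaks lay at promoters (439), in introns (234) and in exons (58). The material was whole Drosophila melanogaster embryos aged 0 to 18 h from a transgenic strain in which an insertion targets Dlip2, and chromatin sheared to 200 to 800 bp was precipitated with an anti-GFP antibody. There was 1 group of 2 biological replicates, and nothing was compared with an untagged strain. A whole embryo of this age range mixes many cell types and stages, so a peak does not say in which cells a site was bound. The labels write the tagged protein as Dip2, and RefSeq holds that name as a synonym of Dlip2, beside another gene whose symbol is DIP2.

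DNA between genes in the compact Drosophila genome carries enhancers, silencers, insulators and the ends of transcription units. Insulator proteins such as the zinc-finger protein CTCF bind there and help to set which regulatory elements can reach which promoters. The orientation of the genes on either side says what kind of gap a site lies in. Between divergent genes both neighbours start at the gap, between convergent genes both end at it, and between tandem genes 1 starts and 1 ends there. The short core of the CTCF motif was sought on both strands within 100 bp of each summit as AGATGGC or AGGTGGC or AGAGGGC or AGGGGGC. A match is a description of the sequence, and CTCF itself was not measured here.

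Sequences around the core are shown first, because the strongest peaks between genes shared it. At any location, 145 of the 228 strongest peaks on the arms had a core (63.6%). Of the 15 peaks of highest signal between genes, 14 had a core. The lines below show the 9 of these that lie outside the right arm of chromosome 2, whose sequence is not printed here, 5' to 3' on the strand that carries the core nearest to the summit, with the core in capitals. Sequences are RefSeq's for the dm6 assembly, and each peak is named by its 2 flanking genes.
Prm and CG13306, chr3L:8749004-8749050, plus strand: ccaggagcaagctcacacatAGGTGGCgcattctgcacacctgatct
Jhbp1 and CG14662, chr3R:4970794-4970840, plus strand: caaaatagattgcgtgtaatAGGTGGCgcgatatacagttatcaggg
vn and CG5568, chr3L:5869776-5869822, plus strand: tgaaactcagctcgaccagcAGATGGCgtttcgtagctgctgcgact
CG31191 and Atpalpha, chr3R:20948164-20948210, minus strand: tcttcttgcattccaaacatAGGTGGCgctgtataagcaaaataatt
CG12986 and Socs16D, chrX:17820394-17820440, minus strand: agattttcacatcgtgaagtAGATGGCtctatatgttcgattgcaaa
CG10232 and CG10365, chr3R:23722147-23722193, plus strand: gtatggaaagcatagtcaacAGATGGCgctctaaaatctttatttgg
CHES-1-like and CG15478, chrX:7710946-7710992, plus strand: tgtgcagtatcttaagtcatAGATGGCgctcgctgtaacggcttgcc
wgn and Rip11, chrX:18635434-18635480, plus strand: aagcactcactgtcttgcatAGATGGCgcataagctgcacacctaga
CadN and CadN2, chr2L:17784779-17784825, plus strand: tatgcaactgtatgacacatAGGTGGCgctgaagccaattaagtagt
In 7 of these 9 sequences the core followed a T, and in 7 of 9 it was followed directly by GC. AGATGGC was the spelling in 5 and AGGTGGC in 4. The peak without a core among the 15 strongest, between CheB93a and CheB93b, held a stretch of 9 bases that differed at 1 base from a core followed by GC. Such stretches are shown next, with the 9 bases in capitals, for the 6 strongest peaks outside that arm that had no core but such a match.
CheB93a and CheB93b, chr3R:21408501-21408549, plus strand: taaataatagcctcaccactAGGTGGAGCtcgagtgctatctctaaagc
Glut3 and lncRNA:CR45750, chr3R:16798895-16798943, minus strand: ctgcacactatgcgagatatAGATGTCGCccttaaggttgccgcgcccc
dlp and CG43121, chr3L:14671747-14671795, plus strand: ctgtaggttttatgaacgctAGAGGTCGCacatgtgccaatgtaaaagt
FBtr0445478_df_nrg and lncRNA:CR43437, chr4:416562-416610, plus strand: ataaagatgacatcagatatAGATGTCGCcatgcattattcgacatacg
Grik and CG31191, chr3R:20908881-20908929, plus strand: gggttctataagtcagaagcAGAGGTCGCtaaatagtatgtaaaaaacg
CG13970 and CG10651, chr2L:20120999-20121047, plus strand: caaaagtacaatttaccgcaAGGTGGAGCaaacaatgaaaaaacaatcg

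The strongest peak, between Prm and CG13306, held 2 cores within 100 bp of its summit. Their centres lay 11 bp before and 30 bp after it, at -11 and 30 bp along the plus strand. The 201 bases around its summit are printed whole, on the plus strand with both cores in capitals, to show how close the cores lie to each other.
Prm and CG13306, chr3L:8748938-8749138, plus strand: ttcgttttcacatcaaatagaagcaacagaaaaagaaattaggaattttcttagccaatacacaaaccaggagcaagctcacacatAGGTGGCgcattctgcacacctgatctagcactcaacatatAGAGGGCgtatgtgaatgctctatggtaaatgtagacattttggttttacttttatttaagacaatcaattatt

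The deposited lists give 1 signal value per peak on a scale that the deposited text does not state. The signal is the authors' and orders peaks within a list. Among the peaks between genes the signal ran from 13.0 to 4111 with a median of 112 and quartiles of 72.6 and 716. The median was 88.4 in introns, 102 at promoters and 98.2 over all 910 peaks. The peaks between genes were unevenly spread over the ranking. With all 910 peaks divided by signal into 4 bins of equal size, 69 of the 179 fell in the highest bin (signal of 195 or more), and 34, 37 and 39 in the next bins. Chosen by signal alone, 25.1% of all peaks are in the highest bin and 38.5% of the peaks between genes were. They made up 11 of the 25 strongest peaks and 21 of the 50 strongest.

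The peak between Prm, the gene of the muscle thick-filament protein paramyosin, and CG13306 had the highest signal, 4111, and ranked 3 of 910. Its signal was 1852 in the list of replicate 1 and 2283 in that of replicate 2. The summit lay 101 bp past the end of CG13306, with Prm farther away at 3728 bp. The peak between Jhbp1, named for juvenile hormone binding, and CG14662 had a signal of 3722, with 1717 in replicate 1 and 2011 in replicate 2. Both genes end at this gap, the summit lying 2349 bp from Jhbp1 and 11165 bp from CG14662. A second peak in the same gap, 915 bp from Jhbp1, had a signal of 479 and a core of its own. The peak between CheB93a and CheB93b, paired genes of a family linked to pheromone response, had a signal of 3694, with 1800 in replicate 1 and 1902 in replicate 2. Its gap was 798 bp long and the summit lay 238 bp past the end of CheB93a and 561 bp before the start of CheB93b.

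Other peaks among the 15 strongest lay next to genes of varied known roles. The peak between vn, which encodes a neuregulin-like ligand of the EGF receptor, and CG5568 had a signal of 3138, with 1495 and 1661 in replicates 1 and 2. It lay 24116 bp from vn and 1721 bp from CG5568, and both genes start at this gap. The peak between lncRNA:CR44282 and bs, which encodes the Drosophila serum response factor, had a signal of 3030, with 1664 and 1370 in the replicates, and lay 5160 bp from bs. A weaker peak in the same gap had a signal of 61.8 and was in the thresholded list of neither replicate. The peak between CG31191 and Atpalpha, which encodes the catalytic subunit of the sodium pump, had a signal of 2733, with 1075 and 1666, and lay 532 bp before the start of Atpalpha. The peak between gol, which encodes a RING-finger ubiquitin ligase, and lov, which encodes a BTB-domain protein, had a signal of 2501 and lay 169 bp past the end of lov. The peak between wgn, which encodes a receptor of the TNF receptor family, and Rip11, which encodes a Rab11-interacting protein, had a signal of 2326 and lay 179 bp past the end of Rip11. The peak between the neuronal cadherin genes CadN and CadN2 had a signal of 2085, with 1060 in replicate 1 and 1014 in replicate 2, and was the strongest on 2L.

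The remaining peaks of the 15 strongest lay between CG15615 and lncRNA:CR44465 (signal 3421), CG44439 and CG14760 (2991), CG12986 and Socs16D (2603), CG10232 and CG10365 (2464), CHES-1-like and CG15478 (2454), and CG34458 and Pgant9 (2329). Socs16D is a member of the suppressor of cytokine signalling family, CHES-1-like is a forkhead gene, and Pgant9 encodes a transferase that starts O-linked glycosylation. All 15 overlapped a thresholded peak in both replicates, as did 220 of the 228 peaks of any location in the highest signal bin (96.5%). Their flanking genes were tandem at 7, divergent at 6 and convergent at 2.

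**Figure D1:**
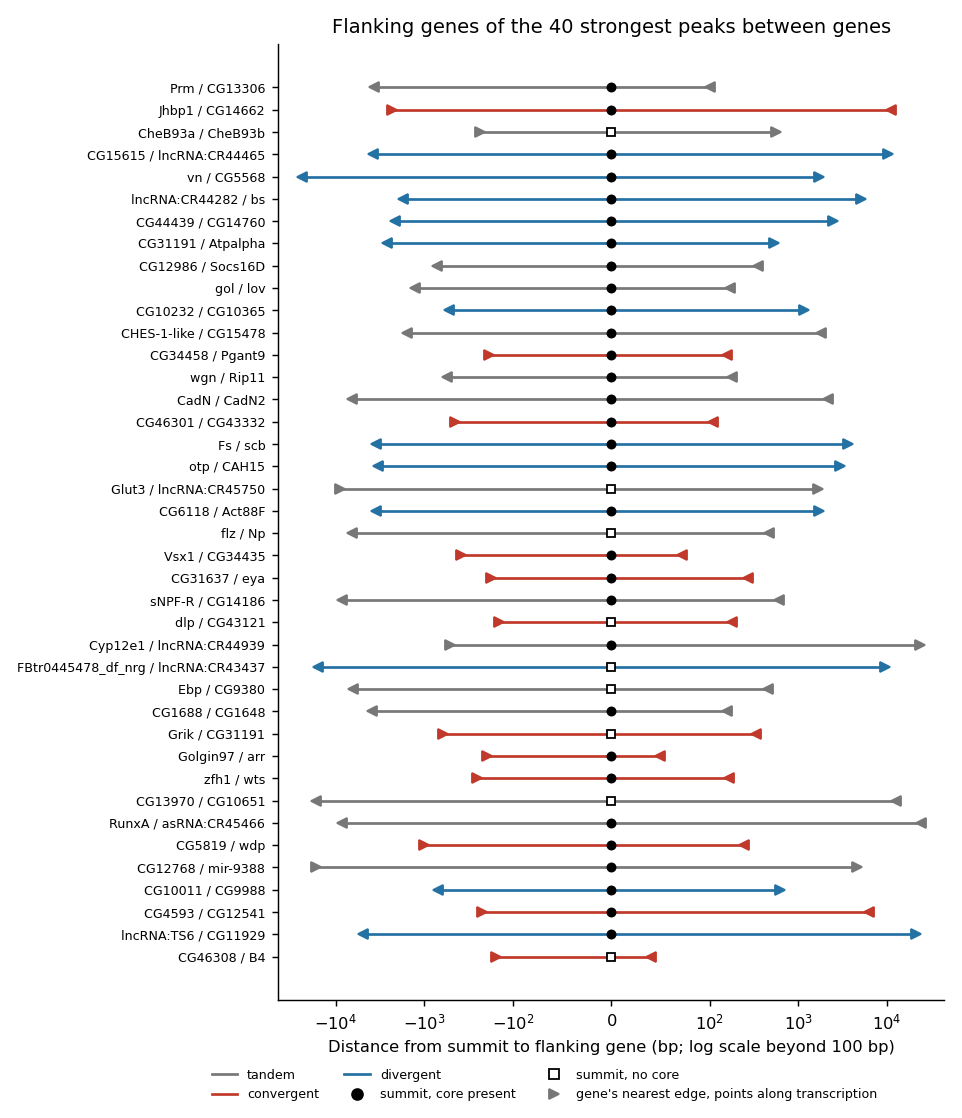
Distance in bp from the summit (0) to the nearest edge of the flanking gene on each side, for the 40 peaks between genes of highest signal, strongest at the top, on an axis that is logarithmic beyond 100 bp. Arrowheads point along transcription and colour gives the orientation: 16 gaps were tandem, 12 convergent and 12 divergent, and 15 of the 40 summits lay within 300 bp of a gene end.

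The 179 peaks were spread over all 7 arms. There were 48 on 3L, 41 on 3R, 33 on 2R, 31 on 2L, 24 on X, 1 on 4 and 1 on Y. As a share of the thresholded peaks of the arm, these were 26.1% on 3L (Wilson interval 20.3% to 32.9%), 20.6% on 3R, 19.8% on 2R, 17.8% on 2L and 13.1% on X (8.97% to 18.8%). The strongest peak of this kind on X lay between CG12986 and Socs16D, that on 3R between Jhbp1 and CG14662, and that on 2R between CG15615 and lncRNA:CR44465. The single peak on 4, between an unnamed RNA entry (FBtr0445478_df_nrg) and lncRNA:CR43437, had a signal of 1454, with 458 in replicate 1 and 990 in replicate 2. The single peak on Y lay between 2 Su(Ste) repeats, CR40820 and CR42432. It had a signal of 73.4 and was thresholded in replicate 1 only, where its signal was 74.4 against 3.67 for the overlapping candidate of replicate 2.

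Genes on both sides could be named for 177 of the 179 peaks. The other 2 lay near the ends of the assembled arms 2R (summit 33918) and 3R (summit 108216) with a gene on 1 side. The flanking genes were tandem at 85 peaks (48.0%, Wilson interval 40.8% to 55.3%), convergent at 46 (26.0%, 20.1% to 32.9%) and divergent at 46 (26.0%). The background was the 35744 candidate peaks between genes in the authors' ranked list that were not in the thresholded list, of which 35058 had a gene on both sides. In it the shares were 51.8% tandem, 25.9% convergent and 22.3% divergent. Each interval of the thresholded peaks held the background share, so no departure of the orientation from that of the candidates was detectable with this number of peaks. Among all candidates on the arms outside the thresholded list, 26.3% lay between genes by the same rule, above the 19.7% of the thresholded peaks. The candidates are of any strength, and their windows had a median GC content of 44.8% against 38.3% at the thresholded peaks. The part that base composition has in the comparisons with candidates was not tested.

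Median distances to the flanking genes were shorter than at the candidates. The median gap was 8023 bp long and ran from 166 to 399173 bp, with quartiles of 3407 and 20026 bp. In the candidates the median gap was 17727 bp. The nearer of the 2 flanking genes was at a median of 1328 bp (quartiles 527 and 4473) and the farther at 6397 bp (2632 and 14081), against 3804 bp and 12840 bp in the candidates. From the summit to the nearest transcript start the median was 3309 bp (quartiles 1237 and 5797), against 5214 bp. A gap of at most 2000 bp held 30 of the 177 peaks (16.9%, 12.1% to 23.2%), where 3.06% of the candidates lay in such a gap. The signal of these 30 had a median of 1034, and 23 of them were thresholded in both replicates (76.7%). Over all 910 peaks this share was 41.4%, and in the highest signal bin at any location it was 96.5%. The part that the signal has in the share of the 30 was not tested. A gap over 50000 bp held 14 peaks (7.91%) and 16.8% of the candidates.

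The summit lay within 300 bp of the end of a gene at 32 of 177 peaks (18.1%, 13.1% to 24.4%), where 2.98% of the candidates did. A position this close to a gene start cannot occur, because the rule for choosing the peaks removed it. These 32 had a median signal of 875 and quartiles of 184 and 1533, and the remaining 145 had a median of 100.03 with quartiles of 70.8 and 325. A core was present at 22 of the 32 (68.8%, 51.4% to 82.0%) and at 54 of the 145 (37.2%, 29.8% to 45.3%). The part that the higher signal of the 32 has in this difference was not tested. Convergent genes flanked 19 of the 32 and tandem genes the other 13. This split is partly fixed by the annotation. Both genes end at a convergent gap, a single gene at a tandem gap and neither at a divergent gap. The split was not counted for the candidates near a gene end. Of the 46 peaks between convergent genes, 17 lay in a gap of at most 2000 bp. This is 9.60% of the 177 peaks (6.08% to 14.8%) and 1.11% of the candidates.

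The short convergent gaps included several of well-studied genes, chosen here after their values were seen. Between CG31637 and eya, which encodes a phosphatase and transcription cofactor of eye development, the gap was 450 bp long. Its peak had a signal of 1545, with 620 in replicate 1 and 928 in replicate 2, and lay 178 bp past the end of CG31637 and 273 bp past that of eya. Between zfh1, which encodes a zinc-finger homeodomain protein, and wts, which encodes a kinase of the Hippo pathway, the gap was 422 bp and the signal 1254. Between Golgin97 and arr, which encodes a co-receptor for Wingless, the gap was 246 bp and the signal 1276. Between dlp, which encodes a glypican, and CG43121 the gap was 325 bp and the signal 1530. The shortest gap of all, 166 bp, lay between spg and CG33203 on 3R. Its peak had a signal of 302, with 119 in replicate 1 and 180 in replicate 2. That gap is printed whole, because it holds 2 cores, both on the minus strand and therefore shown in capitals as their complement.
spg and CG33203, chr3R:28870440-28870605, plus strand: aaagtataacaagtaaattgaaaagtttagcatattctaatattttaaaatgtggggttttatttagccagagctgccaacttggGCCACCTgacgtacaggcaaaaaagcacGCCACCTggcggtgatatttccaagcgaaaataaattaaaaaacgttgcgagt

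**Figure D2:**
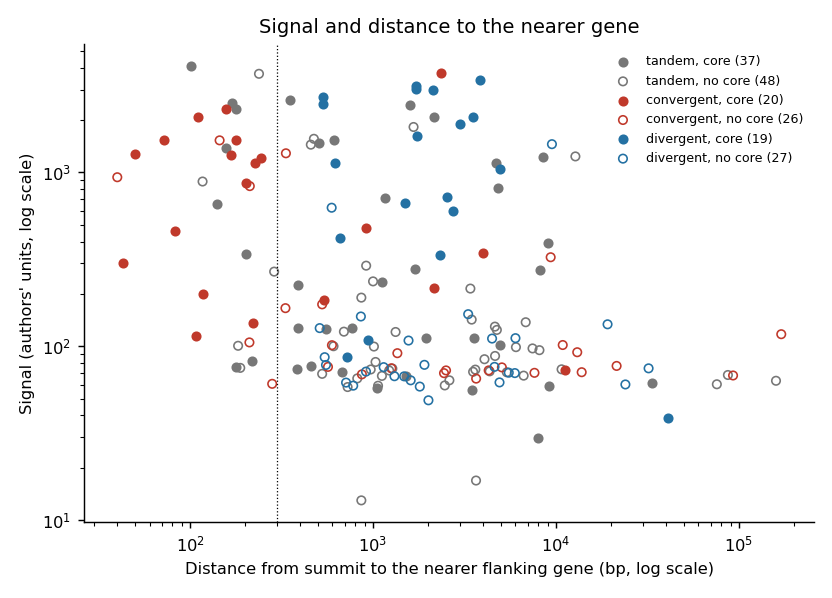
Signal (authors' units, log scale) against the distance in bp from the summit to the nearer flanking gene (log scale) for the 177 peaks with a gene on both sides. Colour gives the orientation of the genes, filled points have a CTCF core, and the dotted line marks 300 bp, left of which lie 32 peaks with a median signal of 875.

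A core lay within 100 bp of the summit at 76 of the 179 peaks (42.5%, 35.5% to 49.8%), and at 8.64% of the candidates between genes. AGATGGC was found at 50 peaks, AGGTGGC at 28, AGAGGGC at 10 and AGGGGGC at 3, some peaks holding more than 1 spelling. In the candidates each of the 4 spellings was found at 1.57% to 2.76%. AGGGGGC was at 1.68% of the peaks (0.572% to 4.81%) and 2.34% of the candidates, so this spelling showed no excess at this number of peaks. At least 2 cores lay at 21 peaks (11.7%), where 0.601% of the candidates had as many. The core was close to the summit. Its centre was a median of 19.5 bp away at the 76 peaks, with 46 of them within 25 bp, against a median of 46.0 bp and 27.8% within 25 bp at the candidates that had one.

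**Figure D3:**
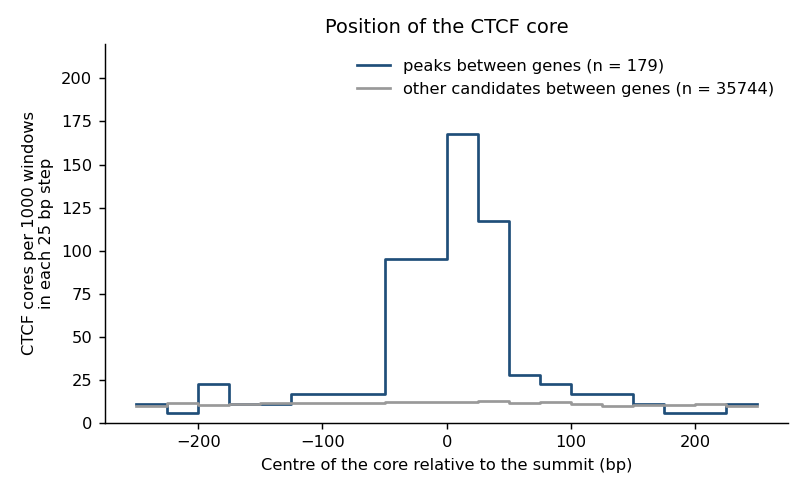
Number of CTCF cores per 1000 windows in steps of 25 bp around the summit, for the 179 peaks between genes and the 35744 other candidates between genes. The peaks reach 168 per 1000 in the step that starts at the summit, while the candidates stay between 9.65 and 12.4 in all steps.

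The core was more frequent between genes than in introns and at promoters of the same list. It was present at 61 of 234 intronic peaks (26.1%) and 78 of 439 promoter peaks (17.8%). Against introns the odds ratio was 2.09 (two-sided Fisher's exact test, p adjusted over 4 comparisons = 0.00101), and against promoters it was 3.41 (adjusted p = 1.76e-09). In the list of replicate 1 alone, 66 of 122 peaks between genes and 41 of 98 intronic peaks had a core, an odds ratio of 1.64 that did not pass (Fisher's exact test, adjusted p = 0.0787). In that of replicate 2 the counts were 68 of 146 and 47 of 191, with an odds ratio of 2.67 (Fisher's exact test, adjusted p = 2.92e-05). These tests compare peaks of 1 list and not separate experiments. Exonic peaks, for which no test was run, had a core at 19 of 58 (32.8%, 22.1% to 45.6%), and at 11 of 13 in the highest of the 4 signal bins (84.6%).

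At each location the share with a core was higher in the highest signal bin than in any of the other bins. Of the 69 peaks between genes in the highest bin, 52 had a core (75.4%, 64.0% to 84.0%), and in the next bins 10 of 34, 7 of 37 and 7 of 39 had one. Intronic peaks of the highest bin had it at 33 of 46 (71.7%), 7 of 51 in the second, 10 of 60 in the third and 11 of 77 in the lowest. Promoter peaks of the highest bin had it at 49 of 100 (49.0%), and those of the other bins at 13 of 130, 9 of 122 and 7 of 87. Within the highest bin the intervals of the peaks between genes and of intronic peaks overlapped over most of their length. The part that the higher signal of the peaks between genes has in the difference from introns was not tested further.

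**Figure D4:**
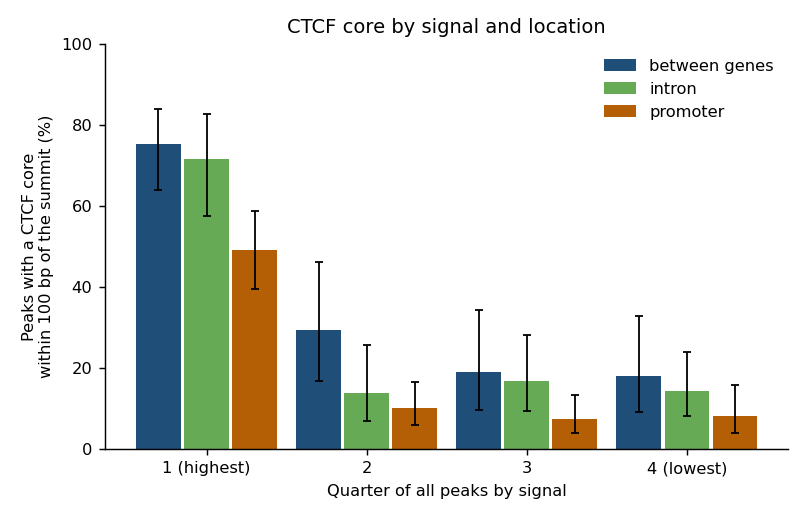
Share of peaks (%) with a CTCF core within 100 bp of the summit, by signal bin of all 910 peaks and by location, with 95% Wilson intervals. In the highest bin the share was 75.4% between genes, 71.7% in introns and 49.0% at promoters, and in each lower bin it was 29.4% or less at all 3 locations.

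The peaks between genes fell into 2 kinds by the shape the authors' caller gave them. At 112 of the 179 (62.6%) the peak was 364 bp long with the summit at its base 183, the most frequent length and summit place in the list. These are called standard-width peaks here. Their signal ran from 13.0 to 218 with a median of 75.3. The other 67 had lengths of their own, from 93 to 535 bp, and signals of 215 to 4111 with a median of 1224. Standard width was found at 191 of 234 peaks in introns (81.6%) and 355 of 439 at promoters (80.9%). The width is set by the caller and moves with the signal, so the peaks of either kind are described by it and were not tested against each other.

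Nearly all peaks of own width had a core or a close relative of it. A core was present at 50 of the 67 (74.6%, 63.1% to 83.5%) and at 26 of the 112 standard-width peaks (23.2%, 16.4% to 31.8%). At the 50, the base after the core was G at 45 and the 2 bases after it were GC at 37, and the base before it was T at 33. At the candidates between genes with a core, GC followed it at 5.24% and T came before it at 15.5%. The 26 standard-width peaks with a core lay between, with GC after it at 14 (53.8%) and T before it at 12 (46.2%). Farther out at the 50 sites, the 6th base before the core was A at 72.0% and the 8th was T at 62.0%. At the candidates with a core these shares were 27.5% and 21.4%. At the 26 standard-width sites they were 61.5% and 30.8%, and the 8th base was more often C (53.8%). Counted with GC after the core and at most 1 mismatch in the 9 bases, a rule chosen after the sequences of strong peaks were seen, 63 of the 67 held a match (94.0%, 85.6% to 97.7%). The 4 without a match included the peak between CG34458 and Pgant9, which had an exact core that GC did not follow. A match was held by 31 of the 112 standard-width peaks (27.7%) and 10.2% of the candidates. It was held by 52.5% of all peaks between genes, 29.9% of intronic, 21.6% of promoter and 43.1% of exonic peaks. Over all 910 peaks the share was 31.2%. The share among own-width peaks at those other locations is not given here, so the match is not shown to be particular to peaks between genes. Among the 17 peaks of own width without an exact core 15 had such a match, among them those near CheB93a, Glut3 (a glucose transporter gene), dlp and Grik (a kainate-type glutamate receptor gene) shown above.

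For contrast, the strongest standard-width peak without a core lay between Rm62, which encodes a DEAD-box RNA helicase, and CG10280. Its signal was 190, with 77.3 in replicate 1 and 112 in replicate 2. It held no match to the 9 bases of a core followed by GC with at most 1 mismatch. At the summit it did hold aggtgga, which differs from the core AGGTGGC at 1 base. The 121 bases around its summit follow, all in lower case because no core was found.
Rm62 and CG10280, chr3R:6009650-6009770, plus strand: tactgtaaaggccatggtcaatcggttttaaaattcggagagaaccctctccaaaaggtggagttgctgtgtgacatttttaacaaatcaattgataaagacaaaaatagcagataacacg

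The replicates' own lists held the peaks of either kind to unlike degrees. Over all 179, 106 overlapped a thresholded peak of replicate 1 by at least 1 bp (59.2%) and 128 one of replicate 2 (71.5%). Both replicates had one at 88 (49.2%, 41.9% to 56.4%), replicate 1 alone at 18, replicate 2 alone at 40 and neither at 33. Of the 67 peaks of own width, 66 were in both lists, and the other, between Su(z)2, a Polycomb-group gene, and CG13323, was in that of replicate 2 only. All 67 had signals of the highest signal bin, where 220 of 228 peaks of any location were in both lists (96.5%). Of the 112 of standard width, 22 were in both lists (19.6%), 18 in that of replicate 1 only, 39 in that of replicate 2 only and 33 in neither. The last were past the threshold in the list made from both replicates and in neither replicate's own list. Across sites with a candidate in both replicates, Spearman's rho of the 2 signals was 0.94 over 66 peaks of own width and 0.14 over 94 of standard width, as a description of peaks that share their libraries.

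**Figure D5:**
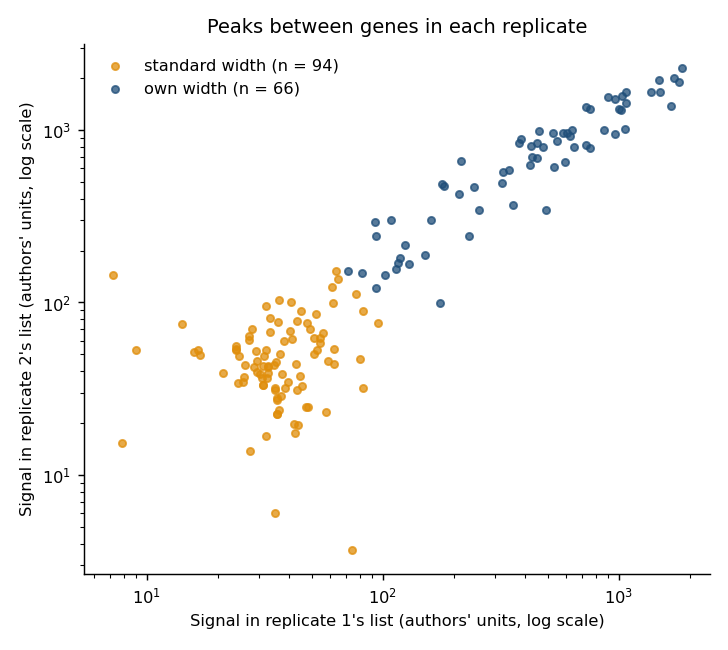
Signal of the overlapping candidate in replicate 2's own list against that in replicate 1's (authors' units, both axes logarithmic) for the 160 peaks between genes with a candidate in both, coloured by width. The 66 peaks of own width lie along 1 line (rho 0.94) and the 94 of standard width form a cloud at low signal (rho 0.14).

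Over all 910 peaks, 41.4% overlapped thresholded peaks of both replicates. The share was 33.3% in introns (78 of 234) and 43.5% at promoters (191 of 439). The 49.2% of peaks between genes was above that in introns (odds ratio 1.93, two-sided Fisher's exact test, p adjusted over 4 comparisons = 0.00163) and was not distinguished from that at promoters (odds ratio 1.26, adjusted p = 0.213). The difference from introns did not pass in the conservative list (odds ratio 1.59, adjusted p = 0.100) or in the part of the list above its median signal (1.85, adjusted p = 0.116), by the same Fisher's exact test. Within signal bins the higher share between genes was seen in the highest bin, with 68 of 69 peaks (98.6%) against 43 of 46 intronic peaks (93.5%). In the lower bins the share between genes was the smaller one, at 52.9% against 54.9% in the second, 2.70% against 6.67% in the third and 2.56% against 3.90% in the lowest. No test was run within bins.

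Peaks in very long gaps had low signals and were not shared by the replicates' lists. Peaks of the third and lowest signal bins were seldom shared at any location. Over all 910 peaks, 59.5% of the second signal bin, 6.61% of the third and 3.07% of the lowest were in both lists. Whether the length of the gap has a part beyond the low signal was not tested. All 14 in gaps over 50000 bp were of standard width, with signals of 38.8 to 134 and a median of 67.6, and none was in both replicates' lists. Replicate 1 alone had 6 of them, replicate 2 alone 3 and neither 5. The 3 peaks farthest from any transcript start were the arm-end peak of 3R, 458860 bp from that of Myo81F (signal 73.0), the arm-end peak of 2R, 292850 bp from that of DIP-lambda (95.9), and a peak between Dbp80 and lncRNA:CR46482, 198179 bp from the nearest start (117). All 3 were in the thresholded list of replicate 1 and not in that of replicate 2.

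The 177 peaks with 2 neighbours lay in 159 gaps. There was 1 peak in 145 of these, 2 in 11, 3 in 2 and 4 in 1. The gap with 4, between lncRNA:CR44603 and lncRNA:CR45695 on 2L, was 20910 bp long, and its peaks had signals of 276, 142, 137 and 29.7. The gap with 3 between lncRNA:CR44363 and CG7560 had signals of 97.2, 94.9 and 63.7, and that with 3 between tRNA:Ile-TAT-1-2 and CG13898 had 102, 76.1 and 70.9. Peaks in 1 gap share their flanking genes and were counted once each in the shares above, and 8 peaks overlapped another of the set.

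Both flanking genes were protein-coding at 107 of 177 peaks (60.5%, 53.1% to 67.4%), 1 was at 58 and neither at 12, where both were in 49.1% of the candidates. A long or other non-coding RNA gene flanked 57 peaks (32.2%, 25.8% to 39.4%) and 43.7% of the candidates. A tRNA gene flanked 7 peaks (3.95%, 1.93% to 7.94%; candidates 1.76%), which lay next to only 4 tRNA genes. The strongest was between CG14327 and tRNA:Val-CAC-1-1 with a signal of 236, and none of the 7 had a core. A miRNA gene, mir-9388, flanked 1 peak with a signal of 1139 (0.565%; candidates 1.24%) and a snRNA gene, snRNA:U5:14B, flanked 1 (0.565%; candidates 0.151%). Pseudogenes flanked 4 (2.26%, 0.882% to 5.67%; candidates 5.59%), the strongest next to CR7448 (279). The snoRNA and rRNA genes flanked none, where 0.0399% and 0.596% of the candidates had one.

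Lists of protein-coding genes were counted the same way. Genes of the list of odorant and pheromone carriers, which also holds the Osiris family, flanked 4 peaks (2.26%, 0.882% to 5.67%), those next to CheB93a and CheB93b, Jhbp1 (2 peaks) and Osi1, and 1.41% of the candidates. Detoxification enzymes flanked 5 (2.82%, 1.21% to 6.44%; candidates 1.03%). Among them were the cytochrome P450 genes Cyp12e1, 508 bp from a peak of signal 1483, Cyp318a1, 141 bp from a peak of 660, and Cyp18a1, 11048 bp from a peak of 215. Ion channel, transporter and receptor genes flanked 2 (candidates 1.84%), the peaks next to Atpalpha and to nAChRalpha7, a subunit gene of the nicotinic acetylcholine receptor, the latter with a signal of 713. Chemoreceptor genes flanked 2 (1.13%, 0.310% to 4.03%; candidates 3.02%), Ir67b with a signal of 218 and Ir10a with 67.8. Cuticle protein genes flanked 1 (0.565%, 0.0998% to 3.13%; candidates 0.876%), the peak next to Edg84A. The list of serine proteases flanked none, where 0.183% of the candidates had one.

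Genes of developmental regulators were counted in 4 lists. Homeobox genes flanked 6 peaks (3.39%, 1.56% to 7.20%; candidates 4.38%). The strongest lay between otp, a homeobox gene of nervous system and hindgut, and the carbonic anhydrase gene CAH15, with a signal of 1897, 962 in replicate 1 and 948 in replicate 2. The next lay between the Hox gene lab and the cuticle gene Edg84A, with a signal of 627 and no core, and the peak next to mirr had a signal of 98.8. Other developmental transcription factor genes flanked 7 (3.95%, 1.93% to 7.94%; candidates 2.75%), among them disco with a signal of 394, bin, a FoxF-type gene of visceral mesoderm, with 235 and Sox21a with Sox21b with 128. Signalling ligand genes flanked 4 (2.26%, 0.882% to 5.67%; candidates 0.747%). These were the peak next to vn, the peak between Wnt6 and Wnt10 (signal 125), the peak next to upd2 (112) and the peak between Wnt4 and wg (111). Among nuclear receptor genes Hr51 flanked 1 (0.565%, 0.0998% to 3.13%; candidates 0.625%), between Hr51 and unc-5, a netrin receptor gene, with a signal of 269. For each of these lists except detoxification enzymes and ligands the background share lay within the interval of the peaks, and all rest on 7 peaks or fewer.

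Other short motifs were sought in the same windows, on both strands. CGATA, the core of BEAF-32 and DREF sites, was found at 46 of the 179 peaks (25.7%, 19.9% to 32.6%), 23.1% of intronic and 33.5% of promoter peaks and 18.5% of the candidates between genes. TATAAA, the TATA box, was found at 28.5% (22.4% to 35.5%), 30.8%, 39.4% and 16.7% in the same order. TTTATT or TTTATG, which Caudal prefers, was found at 57.0% (49.7% to 64.0%), 55.1%, 60.6% and 46.3%. TGCATA, in the core of Su(Hw) sites, was found at 19.6% (14.4% to 26.0%), 14.5%, 14.1% and 13.8%. GAGAG, which GAGA factor binds, was found at 18.4% (13.4% to 24.8%), 28.2%, 19.8% and 21.9%. TCACACT, the site of M1BP, was found at 8 peaks (4.47%, 2.28% to 8.57%), 0.855%, 2.96% and 2.00%, and CAGGTAG, the site of Zelda, at 1 peak, 0.427%, 0.456% and 0.920%. TATAAA overlaps the Caudal spellings in letters, and the lower GC content of the thresholded windows moves with the motifs rich in A and T, whose part was not tested.

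The signals of the peaks on either side of the 500 bp limit are given as a description. The nearest peaks beyond it, which the rule kept, were 511 bp from the start of CG17896 (signal 127), 527 bp from that of CG10479 (69.4) and 531 bp from that of CG10232 (2464). Just within it, among promoter peaks that lie outside gene bodies, were peaks 475 bp from the start of Nha2 (243), 470 bp from that of CG31076 (600) and 457 bp from that of Nhe3 (1444). Of these 6 peaks, that of CG10232 and all 3 promoter peaks had a core.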

How the data were processed

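Chromatin from 2 biological replicates of 1 group was analysed from the authors' deposited peak lists in dm6, made from both replicates (optimal and conservative) or from each alone, per the text deposited with the samples. Neither aligner nor peak caller is named in the sources used here. Signal values are the caller's, as deposited by the authors, and were used within a list. The score is the authors' scaled IDR score, deposited with each peak. Read counts are not part of these lists, so depth is unknown, and Wilson intervals cover the number of peaks only.

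Each summit is the deposited offset from the peak's start, as the authors gave it. Summits were placed against Ensembl release 115 gene models and RefSeq sequence of the same assembly. Each flanking gene is the nearest gene body on its side. A replicate's signal is that of its candidate with the longest overlap. Shares were compared by two-sided Fisher's exact test (SciPy 1.17.1), adjusted by Benjamini-Hochberg over 4 comparisons, or over the 2 of the core in a single replicate's list. Scripts were tested on simulated data. Named genes flank the 15 strongest peaks, the strongest of each arm, those nearest the limit, the 3 farthest from a start, the fullest gaps and up to 3 peaks per gene list, and any others were named after their values were seen. Alternatives were each replicate's list, the conservative list, other limits and windows, merged overlaps and transposable elements left out. The peaks, lists and motifs were chosen with earlier results of these data known. Tracks and alignments were not used here.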

Additional observations from a re-analysis of the deposited data

How the results depend on the processing

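Of 80 recomputed values, 63 kept their direction and their side of the threshold or stayed close to the reported value, 3 tests no longer passed, 14 values moved and none reversed. The share of peaks between genes (19.7%) was 26.1% without replicate 2 and 19.9% without replicate 1, 22.6% among peaks above the median signal, 25.1% with starts within 250 bp removed and 15.9% with starts within 1000 bp removed. The core share (42.5%) was 54.1% without replicate 2 and 46.6% without replicate 1, 52.3% in the conservative list, 60.2% above the median signal, 50.3% within 250 bp of the summit, 52.5% with GC after the core and 1 mismatch allowed, and 74.6% without standard-width peaks, the last pair of settings being chosen after seeing the data. The median signal (112) was 98.8 without replicate 2, 102 without replicate 1, 230 in the conservative list and 458 above the median signal. The scale may differ between lists, so medians of different lists are given and not compared. The value above the median signal follows from keeping the stronger peaks. The median distance to a start (3309 bp) was 1816 bp with the 250 bp limit, 4008 bp with the 1000 bp limit, 3612 bp without replicate 2 and 2382 bp without replicate 1. The tandem share (48.0%) was 53.8% without replicate 2, 48.6% without replicate 1 and 44.1% with protein-coding flanks only. The last of these settings was not planned in advance. Neither was leaving out RefSeq genes as well, which kept the share of peaks between genes at 19.7%. The odds ratio of the core against introns (2.09) was 1.64 without replicate 2, no longer past the threshold, and 2.67 without replicate 1, and against promoters (3.41) it was 3.20 and 3.40. Presence in both replicates against introns (1.93) was 1.59 in the conservative list and 1.85 above the median signal, neither past the threshold. Without a replicate means that the list of the other replicate alone was used. The cause of these changes was not tested. No paired analysis was possible because there is 1 group.

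Peaks of low signal limit what can be read from single sites, since most were in the list of 1 replicate or of none. The candidates used as background are of any strength and richer in GC.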
